A study of Homo sapiens with 12 samples.

Results

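The transcripts of 39 genes of macroautophagy were examined in U87 glioblastoma cells, the core machinery and the cargo receptors as listed by name, out of 18417 genes that have a transcript cluster of their own on the array. A transcript cluster is the set of probes placed along one gene. Each gene was represented by the cluster that carries its symbol alone, and where 2 such clusters exist by the one with the higher mean over the 12 arrays. All 39 genes were measured, 37 through 1 cluster of their own and ATG2B and ATG4B through the brighter of 2. The array gives no call of presence, so the count of genes measured is not a count of genes expressed. RB1CC1, the gene set against the rest, encodes the scaffold protein also known as FIP200, which joins ULK1 or ULK2, ATG13 and ATG101 into the initiating complex and is needed for autophagosomes to form. Its levels in these cells were known from earlier results when it was singled out.

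Macroautophagy is the route by which a cell wraps part of its own cytoplasm in a double membrane, the autophagosome, and delivers it to the lysosome for degradation. A kinase complex built around ULK1 or ULK2 starts the process, a lipid kinase complex marks the membrane with phosphatidylinositol 3-phosphate (PI3P), lipid transfer and conjugation proteins enlarge that membrane, and small ubiquitin-like proteins of the ATG8 family on it bind receptors that carry the cargo. The process is known in glioblastoma as a response of tumor cells to nutrient shortage and to therapy. Much of its control acts on proteins after they are made, so mRNA levels give only one view of it.

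Total RNA came from U87, an established human glioblastoma cell line, after 72 h with 3α-THP (allopregnanolone, 10 nM), P4 (progesterone, 10 nM), F (finasteride, 100 nM) or the vehicle V (DMSO). P4 is a steroid hormone, 3α-THP is its 5α-reduced and then 3α-reduced metabolite, and F inhibits 5α-reductase, the enzyme of the first of those steps. All cells had been moved to medium free of phenol red, with charcoal-stripped serum, before treatment, and all came from 1 line, which limits what the arrays say about other glioblastoma cells. The sample characteristics give 0.1% DMSO for the vehicle while the treatment protocol gives a higher share, a mismatch that the signals cannot settle. Each treatment has 3 arrays that the labels call biological replicates, numbered 1 to 3, and the V arrays are the control of all 3 steroids, so the comparisons with V share them. Values are log2 signals, on which a difference of 1 is a doubling. The median signal of an array over the named clusters was 6.35 to 6.40.

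Of the markers of such a line, VIM (mean log2 signal 12.5) and CD44 (11.8) were among the brightest clusters, while GFAP (5.99 to 6.39), NES (5.74 to 6.19), SOX2 (3.88 to 4.26) and S100B (3.57 to 3.98) were not. OLIG2, read as a further marker of such a line, lay at 5.37 to 5.79. The leukocyte marker PTPRC lay at 2.84 to 3.10 and AIF1 of microglia at 3.34 to 3.69. PECAM1 of endothelium lay at 3.79 to 4.17 and EPCAM of epithelium at 3.42 to 3.96. CDH5, also of endothelium, had a mean of 5.22, above SOX2 and S100B. The neuronal marker RBFOX3 lay at 5.61 to 6.26, overlapping with NES, and SYT1 at 4.81 to 5.48. Of the oligodendrocyte markers, MBP lay at 4.22 to 4.56 and MOG had a mean of 5.38. The epithelial keratin KRT18 lay at 6.82 to 7.42. The lysosomal protein CD68, also used as a macrophage marker, had a mean of 10.8. Some markers of other cell types therefore lay as high as NES, SOX2 or S100B.

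RB1CC1 mRNA was 2.12-fold higher in cells treated with 3α-THP and 1.95-fold higher in cells treated with F than in V cells. None of the other 38 genes passed the threshold for a call, a fold change (Fc) above 1.5 with an unadjusted p under 0.05, with any steroid. On the arrays of 3α-THP the log2 signal of RB1CC1 was 8.16, 8.52 and 8.42. On those of P4 it was 7.31, 7.63 and 8.09, and on those of F it was 8.38, 7.91 and 8.44. The V arrays had 7.11, 7.81 and 6.92. All 3α-THP arrays and all F arrays lay above all V arrays, while P4 arrays lay on both sides of the highest V array. Signal from bulk RNA is relative to the RNA labelled, so that fewer cells carrying a transcript and less of it per cell cannot be told apart.

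The mean log2 signal of RB1CC1 was 8.37 ± 0.19 with 3α-THP, 8.24 ± 0.29 with F and 7.67 ± 0.39 with P4, against 7.28 ± 0.47 with V (SD, n = 3 arrays each). The log2 difference from V was 1.09 with 3α-THP, with a 95% interval of 0.57 to 1.60 (limma, adjusted p = 0.376 over all tested clusters). With F it was 0.96, with an interval of 0.45 to 1.48 (limma, adjusted p = 0.833). Both passed the threshold used for calls, which is that of the methods of the study. Neither reached 0.05 after Benjamini-Hochberg adjustment. With P4 the difference was 0.39, with an interval of -0.12 to 0.91 that holds both 0 and a 1.5-fold rise (Fc = 1.31, limma, adjusted p = 1.00). Because F was given at 10 times the dose of 3α-THP and P4, its values stand beside theirs without a test between them.

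3α-THP and P4, which differ by the reduction of the progesterone A ring at the 5α and 3α positions, were the only pair of steroids at a matched dose. RB1CC1 was higher with 3α-THP than with P4 by 0.69 on the log2 scale (Fc = 1.62, interval 0.18 to 1.21, limma, adjusted p = 0.999), and no array of 3α-THP overlapped with those of P4. The call rested on a single array. Without P4 replicate 1 the difference was 0.51, under the 1.5-fold limit, and under the unmoderated analysis of variance of the methods the full difference of 0.69 just missed the threshold on p. An exact permutation test of RB1CC1 alone gave a two-sided p of 0.1 for 3α-THP against V, F against V and 3α-THP against P4, the smallest value that 3 arrays against 3 can give, and 0.3 for P4 against V.

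Same-numbered arrays of the 4 treatments deviated together, so differences were also taken within each number. RB1CC1 was higher with 3α-THP than with V in 3 of 3 replicates, by 1.04, 0.71 and 1.51. Within the F replicates it was higher by 1.26, 0.10 and 1.53, so that replicate 2 showed little of the difference. For P4 the values were 0.20, -0.19 and 1.17, which do not share a sign. 3α-THP exceeded P4 in 3 of 3, by 0.84, 0.90 and 0.34. V replicate 2 was the V array with the highest RB1CC1 signal. Without that array the difference between P4 and V was 0.66 and passed the threshold (limma, adjusted p = 1.00). Without P4 replicate 3 it was 0.19, so the size of the P4 difference depended on single arrays of V and of P4.

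**Figure D1:**
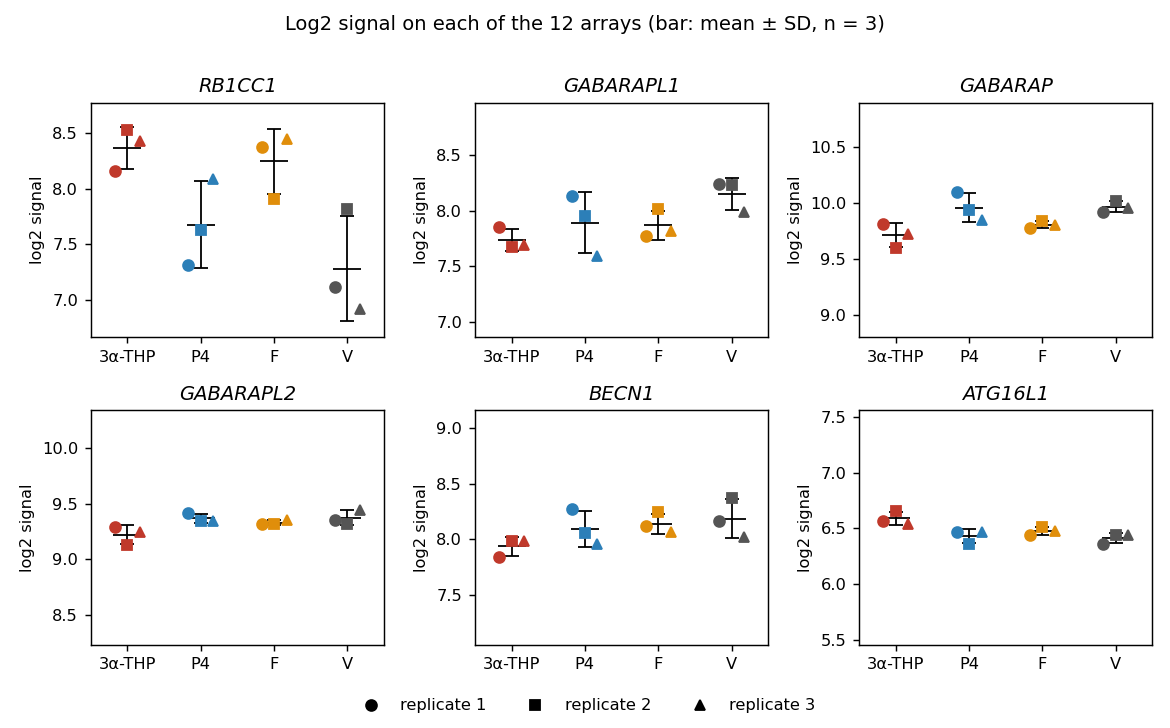
Log2 signal of 6 autophagy genes (vertical axes, each spanning the same range of 2.1 log2 units) on the arrays of 3α-THP, P4, F and V (horizontal axis), with points shaped by replicate number and bars for the mean ± SD of 3 arrays. RB1CC1 spreads over 1.61 log2 units, with the 3α-THP arrays at 8.16 to 8.52 and the V arrays at 6.92 to 7.81, while the other 5 genes stay within 0.65.

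RB1CC1 stood apart from the other 38 genes in both directions. Each gene was centred on its own mean over the 12 arrays, and the place of RB1CC1 was read on each array. It lay above all 38 others on 5 arrays, the 3 of 3α-THP and F replicates 1 and 3, and below all of them on 3 arrays, P4 replicate 1 and V replicates 1 and 3. On the remaining 4 it lay within their range. Its range over the 12 arrays was 1.61 log2 units, the largest of the 39, against a median of 0.369 over the others, 0.762 for ATG3, which had the next largest, and 0.154 for AMBRA1, which had the smallest.

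The spread of RB1CC1 among replicates of 1 treatment was also the largest of the 39. Its pooled SD within treatments was 0.352, against a median of 0.102 over the others and 0.279 for ATG3. Relative to the median of the 38 others, the log2 difference of RB1CC1 from V was 1.13 with 3α-THP, 0.99 with F and 0.42 with P4, and that between 3α-THP and P4 was 0.71. No test was made of these values, since the 39 genes were listed with results of these arrays known.

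**Figure D2:**
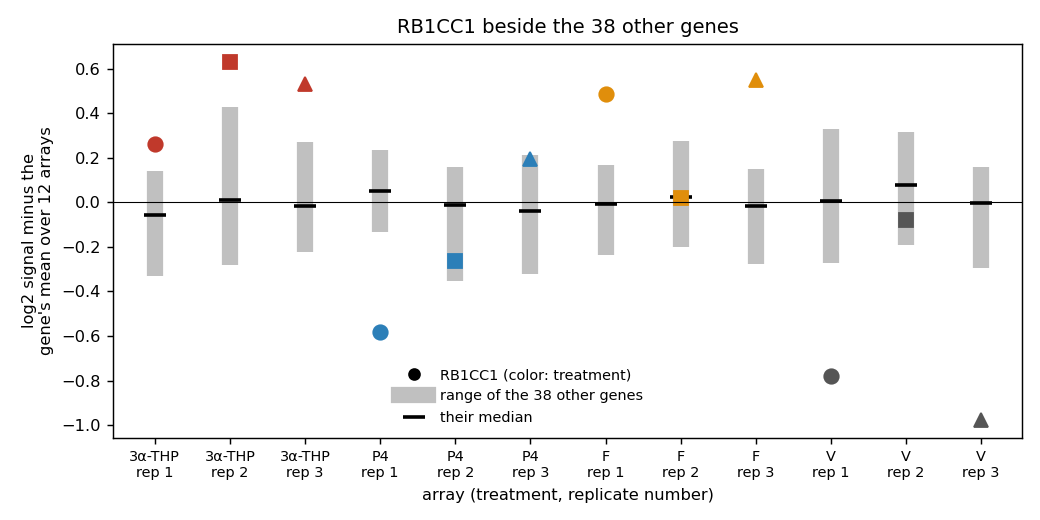
Log2 signal minus the gene's mean over 12 arrays (vertical axis) on each array (horizontal axis), with colored points for RB1CC1, gray bars for the range of the 38 other genes and black marks for their median. RB1CC1 lies above the gray bar on 5 arrays, below it on 3 and inside it on 4.

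Over the whole list, 1 of 39 genes was called with 3α-THP, where 0.679% of the 21214 tested clusters were called. With F it was 1 of 39, against 0.396% of clusters. No listed gene was called with P4, against 0.0236% (5 clusters), and in 3α-THP against P4 it was 1 of 39, against 0.25%. The gene called was RB1CC1 each time, always higher, and its selection was made with these values known, so that nothing can be read from the shares. After adjustment no listed gene passed in any comparison, and of all clusters 0.00471% (1 cluster) passed with 3α-THP and with F and 0% with P4 and in 3α-THP against P4. At an unadjusted p under 0.05 there were 6 of 39 with 3α-THP, 2 with F, 0 with P4 and 2 in 3α-THP against P4, beside 7.34%, 4.69%, 1.82% and 3.96% of all tested clusters.

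In its medians, and in the share of negative differences with 3α-THP and with F, the list lay near all tested clusters. Its share of genes whose arrays did not overlap with those of V was larger with 3α-THP and with F, a description with no test. Its median log2 difference from V was -0.04 with 3α-THP, -0.04 with F and -0.04 with P4, against medians of -0.03, -0.02 and -0.01 over all tested clusters. With 3α-THP 23 of 39 differences were negative, beside 58.9% of all clusters. With F 24 of 39 were negative, beside 12341 of 21214 clusters. With P4 the share was larger in the list, 28 of 39 beside 11896 of 21214. Arrays of 3α-THP and V did not overlap for 14 of 39 genes, 3 higher and 11 lower, beside 11.3% of all clusters, 4.02% higher and 7.28% lower. For F this held for 9 of 39 and for P4 for 2 of 39, beside 9.11% and 5.44%. Apart from RB1CC1, the 95% interval of the difference from V stayed inside the 1.5-fold limits for 37 of 38 genes with 3α-THP, the exception being GABARAPL1, and for 38 of 38 with F and with P4.

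**Figure D3:**
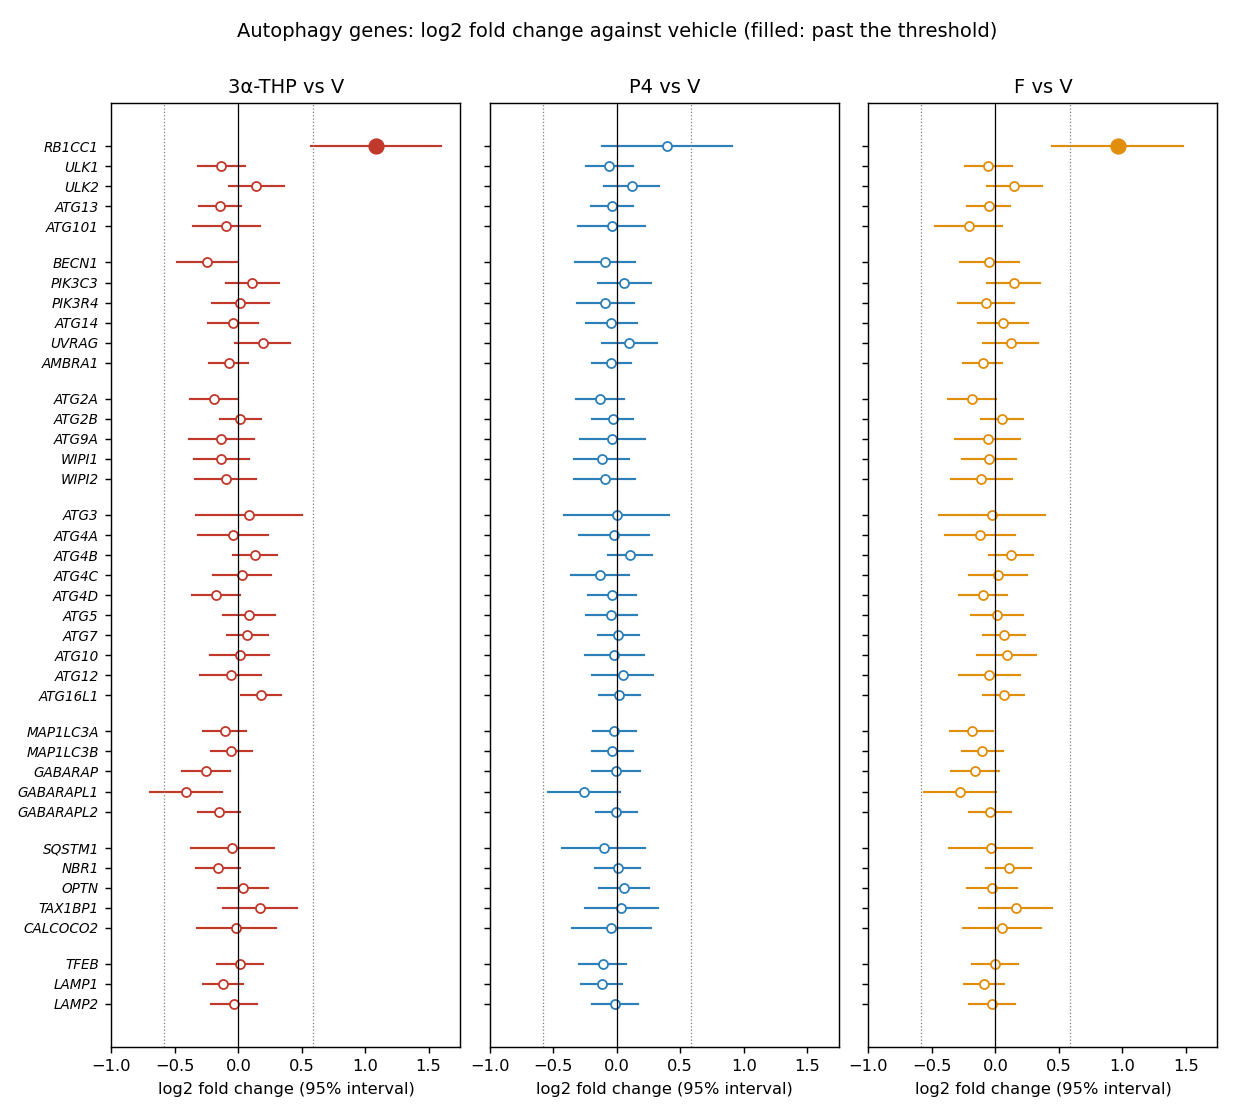
Log2 fold change of the 39 genes (rows, by role) with 3α-THP, P4 and F against V (horizontal axes), with lines for the 95% interval of the limma fit of 3 arrays per treatment and dotted lines at a 1.5-fold change. Filled points passed the threshold, which only RB1CC1 did, with 3α-THP at 1.09 and with F at 0.96.

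The partners of RB1CC1 in the initiating complex did not share its difference. ULK1, the kinase of the complex, averaged 8.72 ± 0.03 with 3α-THP and 8.86 ± 0.12 with V (SD, n = 3 each), a difference of -0.14 with an interval of -0.32 to 0.05. ATG13, the regulatory subunit that binds both ULK1 and RB1CC1, had 9.15, 9.20 and 9.14 with 3α-THP, against 9.25, 9.35 and 9.32 with V, a difference of -0.15 with an interval of -0.31 to 0.02. For both genes the 3α-THP arrays lay below the V arrays, opposite to RB1CC1. ULK2, the related kinase, differed by 0.14 with 3α-THP, 0.12 with P4 and 0.15 with F, and ATG101, which stabilizes ATG13, by -0.09, -0.04 and -0.21, all with overlapping arrays. ULK2 is one of 2 listed genes among the dimmest 40% of tested clusters, with MAP1LC3B.

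The class III phosphatidylinositol 3-kinase complexes make the PI3P that marks the growing membrane. BECN1, the Beclin 1 scaffold of these complexes, had 7.84, 7.99 and 7.99 with 3α-THP, against 8.16, 8.37 and 8.02 with V. The groups did not overlap, and the difference was -0.25, with an interval of -0.48 to -0.01 (limma, adjusted p = 0.658), below the fold threshold. With F and P4 it was -0.05 and -0.09. The catalytic subunit PIK3C3 differed from V by 0.11 with 3α-THP and 0.14 with F, and UVRAG, a subunit of the complex that acts on endosomes and late autophagosomes, by 0.19 and 0.12. The subunits PIK3R4 and ATG14 and the regulator AMBRA1 lay between -0.10 and 0.06 in both. With P4 the 6 genes of the group lay between -0.09 for PIK3R4, with BECN1 next to it at -0.09, and 0.10 for UVRAG.

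Among the genes that supply or shape the membrane, ATG2A, a lipid transfer protein, had 7.24, 7.34 and 7.16 with 3α-THP, 7.26, 7.39 and 7.28 with P4 and 7.26, 7.35 and 7.16 with F, against 7.41, 7.56 and 7.36 with V. It was lower than V within each of the 3 replicate numbers with every steroid, and the difference was -0.19 with 3α-THP (limma, adjusted p = 0.674), -0.19 with F (adjusted p = 0.999) and -0.13 with P4 (adjusted p = 1.00). The first had an unadjusted p under 0.05. Its homolog ATG2B lay at 0.01 with 3α-THP, 0.05 with F and -0.03 with P4, and a second cluster of the gene at 0.05 with 3α-THP and 0.06 with F. ATG9A, the lipid scramblase, and WIPI1 and WIPI2, which bind PI3P, lay between -0.13 and -0.04 with all 3 steroids.

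The conjugation enzymes attach ATG12 to ATG5 and lipid to the ATG8 proteins. ATG16L1, which places the ATG12 and ATG5 conjugate on the membrane, was the one other gene with an unadjusted p under 0.05 that lay higher with 3α-THP. It had 6.57, 6.66 and 6.54 with 3α-THP, against 6.36, 6.44 and 6.44 with V, a difference of 0.18 with an interval of 0.02 to 0.34 (limma, adjusted p = 0.624). Its P4 arrays had 6.47, 6.36 and 6.47, from which 3α-THP differed by 0.16 (adjusted p = 0.999). All 3α-THP arrays lay above those of V and of P4. The other 9 genes of the group lay between -0.18 for the protease ATG4D and 0.13 for the protease ATG4B with 3α-THP, between -0.12 for ATG4A and 0.12 for ATG4B with F, and between -0.13 for ATG4C and 0.10 for ATG4B with P4. Both clusters of ATG4B gave 0.13 with 3α-THP.

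The ATG8 family comprises the small proteins that are bound to lipid on both faces of the membrane, LC3 (MAP1LC3A, MAP1LC3B) and the GABARAP subfamily (GABARAP, GABARAPL1, GABARAPL2). All 5 genes had a negative difference from V with 3α-THP and with F, also under every normalization and with each array left out, although none passed the threshold. With 3α-THP the differences ran from -0.41 for GABARAPL1 to -0.06 for MAP1LC3B, with a median of -0.15, and with F from -0.28 for GABARAPL1 to -0.04 for GABARAPL2, with a median of -0.16. With P4 all 5 were negative as deposited, with a median of -0.02, but GABARAPL2 turned positive under quantile normalization and GABARAP and GABARAPL2 did so under cyclic loess, as did 1 or 2 of the 5 under some other settings.

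GABARAPL1, whose product binds receptors and also acts in trafficking of membrane receptors, came closest to the threshold after RB1CC1. It had 7.85, 7.67 and 7.69 with 3α-THP, 8.13, 7.95 and 7.59 with P4 and 7.77, 8.02 and 7.82 with F, against 8.24, 8.23 and 7.98 with V. The 3α-THP arrays all lay below the V arrays, while 1 F array and 1 P4 array lay above the lowest V array. The difference from V was -0.41 with 3α-THP (SE 0.131, interval -0.69 to -0.13, limma, adjusted p = 0.522), -0.28 with F (adjusted p = 0.999) and -0.26 with P4 (adjusted p = 1.00). 3α-THP and P4 differed by -0.15, with an interval of -0.43 to 0.13 that includes 0.

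GABARAP, the founding gene of the subfamily, had 9.81, 9.60 and 9.73 with 3α-THP and 10.10, 9.93 and 9.85 with P4, against 9.92, 10.02 and 9.95 with V. Its 3α-THP arrays lay below all V arrays and below all P4 arrays. The difference was -0.25 from V (SE 0.0866, limma, adjusted p = 0.563) and -0.25 from P4 (adjusted p = 0.999), both with an unadjusted p under 0.05, the 2 comparisons sharing the 3α-THP arrays. With F the arrays had 9.78, 9.84 and 9.80, again below all V arrays, a difference of -0.16 with an interval of -0.35 to 0.03. GABARAPL2 had 9.29, 9.13 and 9.24 with 3α-THP, against 9.36, 9.31 and 9.45 with V, a difference of -0.15 with an interval of -0.32 to 0.01. MAP1LC3A, which had the smallest p with F after RB1CC1, had 5.91, 5.71 and 5.80 with F, against 5.95, 5.98 and 6.04 with V, without overlap, a difference of -0.19 (interval -0.36 to -0.02, limma, adjusted p = 0.999). MAP1LC3B, whose lipid-bound protein is the usual marker of autophagosomes, differed by -0.06 with 3α-THP, -0.04 with P4 and -0.11 with F.

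The promoters of GABARAPL1 and GABARAP are shown because these genes had the smallest p after RB1CC1 with 3α-THP. They are the 250 bases before the annotated start in RefSeq's GRCh38.p14, at chr12:10212627-10212876 on the plus strand for GABARAPL1 and chr17:7242450-7242699 on the minus strand for GABARAP, each written 5′ to 3′ along the gene, and capitals mark a cAMP response element with the letters TGACGTCA.
GABARAPL1: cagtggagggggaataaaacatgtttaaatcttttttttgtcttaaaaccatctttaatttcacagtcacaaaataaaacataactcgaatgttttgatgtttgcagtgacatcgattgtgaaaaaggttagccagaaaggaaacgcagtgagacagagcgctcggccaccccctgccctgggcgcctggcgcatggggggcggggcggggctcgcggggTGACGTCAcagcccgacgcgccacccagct
GABARAP: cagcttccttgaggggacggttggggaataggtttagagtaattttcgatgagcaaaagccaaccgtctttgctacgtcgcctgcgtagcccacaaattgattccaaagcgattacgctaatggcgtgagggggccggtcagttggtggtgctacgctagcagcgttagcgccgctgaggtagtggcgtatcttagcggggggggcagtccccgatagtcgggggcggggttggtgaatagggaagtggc
A promoter window, 250 bases before the start and 50 after it, was matched for 34 of the 39 genes through 44 windows. TGACGTCA, which reads the same on both strands, stood in 1 of these windows, that of GABARAPL1, from 30 to 23 bases before the start, and in 1.85% of 35116 windows of all genes. The core of the CLEAR element, TCACGTGA, also alike on both strands and bound by TFEB, stood in the windows of ATG3 and LAMP1 and in 0.98% of all windows. No binding was measured in these cells.

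The receptors link ubiquitin-marked cargo to the ATG8 proteins. SQSTM1 (p62), the best known of them, had 9.69, 10.20 and 9.78 with 3α-THP, 9.80, 9.96 and 9.74 with P4 and 9.82, 10.17 and 9.71 with F, against 9.84, 10.14 and 9.84 with V. Replicate 2 was the highest in every treatment, and the difference from V was -0.05, -0.10 and -0.04 with the 3 steroids in that order. NBR1, a related receptor, had 7.92, 7.74 and 7.96 with 3α-THP, against 7.98, 8.10 and 8.01 with V, without overlap, a difference of -0.16 (interval -0.33 to 0.02), while with F it lay 0.10 above V. OPTN, TAX1BP1 and CALCOCO2, which also act on damaged mitochondria or bacteria, lay between -0.01 for CALCOCO2 and 0.17 for TAX1BP1 with 3α-THP, between -0.03 for OPTN and 0.16 for TAX1BP1 with F, and between -0.04 for CALCOCO2 and 0.06 for OPTN with P4.

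LAMP1, a glycoprotein of the lysosomal membrane, had 10.06, 10.13 and 10.02 with 3α-THP, 10.13, 10.07 and 10.02 with P4 and 10.11, 10.15 and 10.04 with F, against 10.17, 10.24 and 10.17 with V. No array of any steroid reached the lowest V array, yet the differences were small, -0.12 with 3α-THP (interval -0.28 to 0.04), -0.12 with P4 (-0.28 to 0.04) and -0.09 with F (-0.25 to 0.07), and they share the V arrays. LAMP2, its partner at the lysosomal membrane, and TFEB, the transcription factor of lysosomal and autophagy genes, lay between -0.11 and 0.01, the lowest being TFEB with P4. The LAMP1 window holds 2 CLEAR cores, of which one spans the annotated start. The other, shown here, lies wholly upstream, 29 to 22 bases before the start, within chr13:113297199-113297228 on the plus strand of GRCh38.p14, with the core in capitals.
LAMP1: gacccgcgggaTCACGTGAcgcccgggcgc

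Several of the 39 genes had the same replicate number on top in every treatment. Replicate 2 was the highest of the 3 arrays in all 4 treatments for 6 genes, namely ATG2A, WIPI2, ATG3, ATG4A, SQSTM1 and TAX1BP1. ATG3, the enzyme that hands ATG8 proteins to lipid, showed it most widely, with 9.14 on 3α-THP replicate 2 against 8.38 and 8.83 on the others, and 8.99 on V replicate 2 against 8.49 and 8.61. Replicate 3 was the highest throughout for WIPI1, CALCOCO2 and LAMP2, and replicate 1 for ULK1 and TFEB. RB1CC1 was not among these 11 genes. The same order was not counted over all tested clusters, whose same-numbered arrays also deviated together. It therefore cannot be read as a trait of the listed genes. With the replicate number as a block in the fit, 8 of 39 genes had p under 0.05 with 3α-THP, 5 with F, 1 with P4 and 2 in 3α-THP against P4, beside 13.4%, 8.54%, 3.8% and 9% of all clusters. Of the 39, the blocked fit called RB1CC1 alone with 3α-THP (adjusted p = 0.0822), with F (adjusted p = 0.222) and in 3α-THP against P4, and none with P4, beside 0.74%, 0.424%, 0.311% and 0.0283% of clusters.

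**Figure D4:**
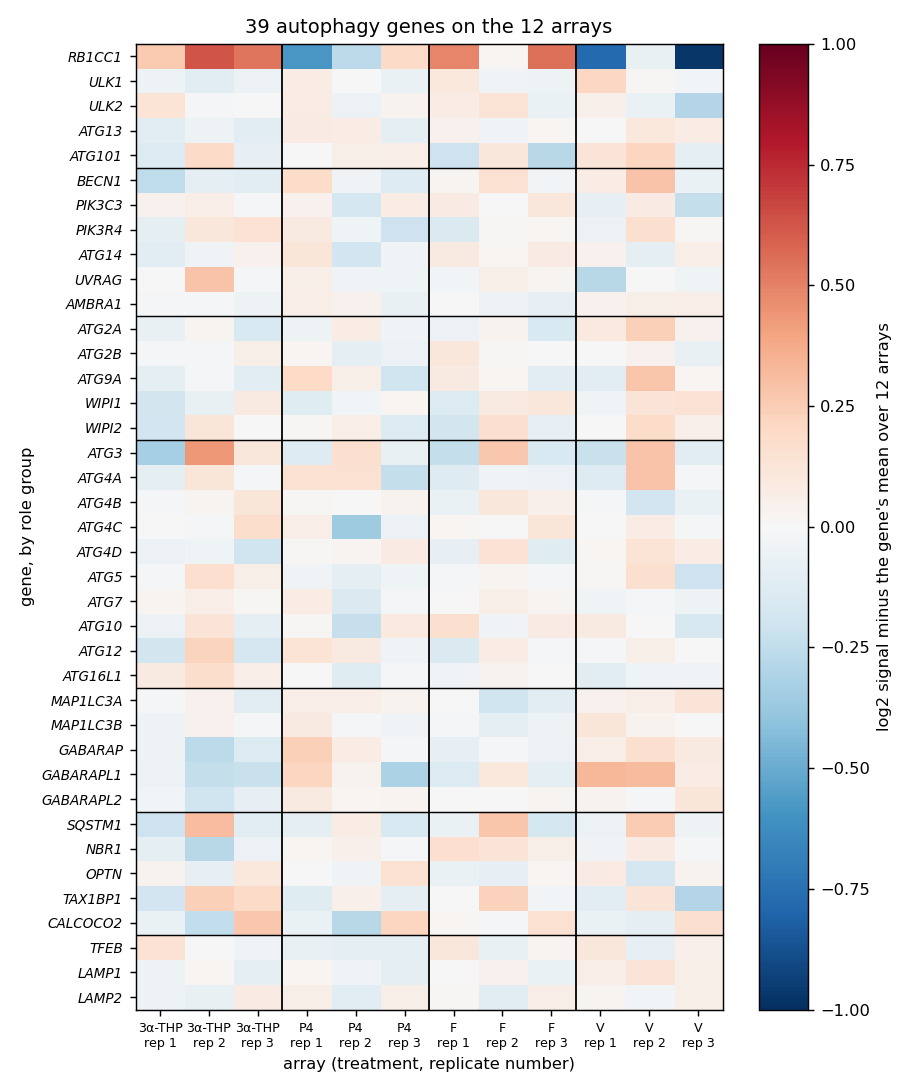
Log2 signal minus the gene's mean over the 12 arrays (color) for the 39 genes (rows, grouped by role) on the arrays of 3α-THP, P4, F and V with replicates 1 to 3 (columns). The RB1CC1 row runs from 0.63 on 3α-THP replicate 2 to -0.98 on V replicate 3, a range that no other row reaches.

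Across the 12 arrays the other 38 genes related to RB1CC1 in both directions, 16 with a positive and 22 with a negative Pearson r. Over all 18416 other genes the median r was -0.107, so an excess of negative values is not particular to the list. The highest were PIK3C3 (r = 0.71, rho = 0.64), ATG16L1 (r = 0.63, rho = 0.71) and TAX1BP1 (r = 0.57, rho = 0.55), and the lowest GABARAP (r = -0.78, rho = -0.88) and GABARAPL2 (r = -0.74, rho = -0.71). Once treatment means were removed, r was 0.64 for PIK3C3, 0.07 for ATG16L1, 0.40 for TAX1BP1, -0.44 for GABARAP and -0.62 for GABARAPL2. The points share arrays and normalization, and the values are descriptions without a test.

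The genes with the pattern most like RB1CC1 lay outside the list. Of 18416 other genes, 126 had r above 0.9 with it over the 12 arrays, which is 0.684%, and none of these was one of the other 38. At so small a share, none among 38 genes is no result about the list. The 8 closest were KTN1, a kinectin of the endoplasmic reticulum (r = 0.996), NEMF, a component of ribosome quality control (0.993), VPS13C, a lipid transfer protein (0.985), RAD50 of the DNA break repair complex (0.985), BRD10 (0.985), NIPBL, the cohesin loader (0.983), SLK, a kinase (0.982), and TPR of the nuclear pore basket (0.981). Within treatments their r was 0.954 to 0.994. With 3α-THP the log2 difference from V of these 8 ran from 0.61 for SLK to 1.13 for TPR and with P4 from 0.18 for BRD10 to 0.32 for KTN1. With F it ran from 0.51 for BRD10 to 0.94 for KTN1. All 8 were called with 3α-THP, beside 0.679% of all tested clusters. KTN1, RAD50, NIPBL and TPR were also called with F, beside 0.396% of clusters. NEMF at 0.5847 and VPS13C at 0.5807 fell just under the 1.5-fold limit of 0.5850 with F. The 8 were picked for their likeness to RB1CC1 on these same arrays, so the counts largely follow from that choice. The paper retested RAD50 and TPR by RT-qPCR, and neither changed with allopregnanolone alone or with finasteride alone. In that retest RAD50 changed only with 3α-THP and F combined. P4 alone raised TPR there, and adding F abolished the rise. On the arrays TPR differed from V by 0.31 with P4 and was not called. Several other genes that the paper retested did rise with allopregnanolone. RB1CC1 was not among the genes retested, so whether its difference would hold by RT-qPCR is not known.

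Further genes of the pathway were read from 5 lists, of upstream regulators, membrane sites at the endoplasmic reticulum, fusion with lysosomes, organelle and cargo receptors, and lysosomal enzymes, pump and channels. Of 108 genes 101 had a cluster of their own. None was called with any steroid or between 3α-THP and P4, where 0.679% of all clusters were called with 3α-THP, 0.396% with F, 0.0236% with P4 and 0.25% in 3α-THP against P4. At p under 0.05 there were 4 with 3α-THP, 1 higher and 3 lower, 2 with F, 1 with P4 and 2 in 3α-THP against P4, beside 7.34%, 4.69%, 1.82% and 3.96% of all clusters. Blocked by replicate number, the fit gave 19, 11, 1 and 8 of the 101 in that order. Beside them stood 13.4%, 8.54%, 3.8% and 9% of all clusters. The median difference of the 101 from V was -0.04 with 3α-THP, -0.03 with F and -0.04 with P4.

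Of these, RICTOR, the defining subunit of the second mTOR complex, lay highest. It had 8.02, 8.32 and 8.52 with 3α-THP and 7.66, 7.78 and 8.17 with P4, against 7.74, 8.07 and 7.59 with V. 1 V array exceeded the lowest 3α-THP array, and the difference was 0.48 from V (limma, adjusted p = 0.566) and 0.41 from P4 (adjusted p = 0.999). NPRL2, a subunit of the complex that restrains mTORC1 when amino acids are scarce, lay at -0.20 with 3α-THP (adjusted p = 0.658) with no overlap. TEX264, a receptor for autophagy of the endoplasmic reticulum, lay at -0.20 (adjusted p = 0.636), also with no overlap, and SEC62, another such receptor, at 0.25 (adjusted p = 0.717). GAA, the lysosomal enzyme that degrades glycogen, had -0.36 (adjusted p = 0.667) with overlapping arrays, and NPC2, which exports cholesterol from the lysosome, -0.16 (adjusted p = 0.694). EI24 and RAB1B of the membrane sites had -0.27 (adjusted p = 0.706) and -0.16 (adjusted p = 0.715), and VPS11 and VPS18, subunits of the complexes that tether lysosomes, -0.17 (adjusted p = 0.698) and -0.22 (adjusted p = 0.751).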

How the data were processed

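The 39 genes, the further lists and the choice of RB1CC1 were made with earlier results of these data known. The authors measured total RNA on Affymetrix Human Gene 1.0 ST arrays, and the deposited table holds 1 log2 signal per transcript cluster and array, which the submitters' processing notes credit to Affymetrix Expression Console 1.4. The methods name quantile normalization for the study's own analysis, and the deposited table names none, so its background correction is not known.

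Of 33297 clusters, 21214 carry a gene name (19460 with 1 gene, 1754 with several) and were tested, and 12083 without a name were not. limma 3.58.1 (R 4.3.3) fitted the 4 treatments together, with 1 mean each and variances moderated towards a common prior (4.73 degrees of freedom), and p-values were adjusted by the Benjamini-Hochberg method over all tested clusters. Clusters with equal values (703) were kept. The script was tested on simulated data whose arrays varied independently, so that test does not cover the deviation that same-numbered arrays share. No array was left out, and the number of arrays limits the precision. P-values set each difference against the moderated spread between replicates, pooled over the 4 treatments. In the fit without a block, that spread includes what same-numbered arrays share.

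Whether replicate numbers pair the arrays was checked on deviations from the treatment means. The 18 same-number pairs correlated at 0.132 to 0.631, with a median of 0.400. The 36 others ran from -0.604 to 0.226, with a median of -0.245, so the ranges overlapped. Deviations from a treatment mean cancel out over its arrays, so high same-number pairs force the others low. The negative median is therefore not separate evidence. The numbers were taken to pair the arrays, and a blocked value is given where it moves a count. The genes named are RB1CC1, genes called in a comparison, the 3 with the smallest p in each comparison, the lowest and highest difference of each role group, the 2 pathway genes per list with the smallest p with 3α-THP, and the 8 genes and 3 listed genes most like RB1CC1. ULK1, ATG13, MAP1LC3B, SQSTM1, NBR1, LAMP1 and the genes following replicate numbers were also described for their role or after their values were seen. Promoter windows came from RefSeq (GRCh38.p14), and no window was used for RB1CC1, UVRAG, MAP1LC3A, LAMP2 and ATG4D.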

Additional observations from a re-analysis of the deposited data

How the results depend on the processing

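The 27 results (16 on RB1CC1 and the list, 11 on single other genes) were recomputed under 24 alternatives, 12 of which left out 1 array, and 2 of which, removal of a trend with gene span and leaving out the 4 arrays of replicate number 2, were chosen after seeing the data. Of 648 values 632 kept their direction and side of the threshold, or moved by less than the spread or by less than 1.5 times for counts. Some alternatives could not move some values, so this number overstates stability. Leaving out a P4 or F array, for example, cannot change a difference between 3α-THP and V. No called value changed sign, but the median of the 39 genes, which has no test, did so for P4 against V under 2 alternatives and for 3α-THP against P4, where it lay at -0.00438, under 6, up to 0.0282 without 3α-THP replicate 1. The replicate block changed no call (RB1CC1 1.09 with 3α-THP, 0.96 with F, 0.39 with P4, 0.69 for 3α-THP against P4). RB1CC1 with 3α-THP passed 0.05 after adjustment only with array weights (limma, 1.31, adjusted p = 0.0437).

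With 1 array left out, the log2 difference of RB1CC1 ran from 0.90 to 1.35 with 3α-THP, 0.78 to 1.23 with F, 0.19 to 0.66 with P4 and 0.51 to 0.90 for 3α-THP against P4, and the number of listed genes called stayed at 1 with 3α-THP and F and ran from 0 to 1 with P4 and for 3α-THP against P4. The median of the 39 genes ran from -0.0831 to -0.00269 with 3α-THP and from -0.0514 to -0.000747 with F.

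For P4 against V, RB1CC1 became called with array weights (0.61, limma, adjusted p = 0.834) and without the arrays of replicate number 2 (0.68, limma, adjusted p = 1.00), which makes 1 of 39 genes called in each, and the median of the 39 genes became 0.000818 and 0.0179. Without V replicate 2 it was called at 0.66. For 3α-THP against P4, the analysis of variance of the methods gave 0.69 with an unadjusted p just over the threshold, so 0 genes were called, and without P4 replicate 1 it was 0.51. Without the arrays of replicate number 2, RB1CC1 minus the median of the other genes was 1.42 for F against V. The cause of these shifts was not tested. The count of listed genes with p under 0.05 with 3α-THP was 6 as reported, 3 with the 2 treatments alone, 10 with array weights and 1 without the arrays of replicate number 2. The filter on low values left 37 of 39 genes. Removal of a trend with protein length was not run, as no protein lengths were used here. With 3 arrays per treatment, a difference that misses the threshold is not shown to be absent.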
